A study of Homo sapiens with 12 samples.

Results

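The TRIM genes code for proteins with a tripartite motif, a RING finger followed by B-box zinc fingers and a coiled coil, and most of them act as ubiquitin ligases. The deposited read counts list 66 genes whose symbol is TRIM followed by a number, out of 26364 genes in all, and these 66 genes are described here. They were measured by bulk RNA sequencing in HL-60, a human myeloid leukemia line, often described as promyelocytic, whose cells turn granulocyte-like under all-trans retinoic acid (ATRA), the ligand of the retinoic acid receptors. Each of 4 times has 3 libraries: 0 h, the start of treatment with 1 µM ATRA, then 4 h, then 2 d, then 4 d of it. All groups are the same cell line in the same serum-containing medium, no untreated culture of 4 h, 2 d or 4 d was analysed here, and time in ATRA and time in culture therefore cannot be told apart. Whether replicates came from separate cultures is not stated, so p-values measure only the spread between these libraries. In bulk RNA, fewer cells of a type and less RNA per cell cannot be told apart either.

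A TRIM protein holds a ubiquitin-charged E2 enzyme with its RING and its target with the domain at its other end. That last domain sorts the family into classes: a PRY-SPRY fold in the largest class, a PHD finger with a bromodomain in the chromatin-bound members, and NHL, MATH, ARF, filamin or membrane-spanning parts in others. Many PRY-SPRY members are induced by interferon and act on viruses or on the sensors of foreign RNA and DNA, while the PHD and bromodomain members regulate transcription, among others through nuclear receptors and KRAB zinc finger proteins. The label of RING ligase does not hold for every symbol: 5 of the 66 genes, TRIM14, TRIM16, TRIM29, TRIM44 and TRIM66, code for proteins without a RING.

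Levels are given in CPM, the reads of a gene per 1000000 gene reads of its library after scaling by TMM factors. Of the 66 TRIM genes, 34 had a mean of 1 CPM or more over the 12 libraries and 32 lay under it. Just above that line were TRIM3 with 1.22 CPM and TRIM50 with 1.38 CPM, and just below it TRIM17 with 0.953 CPM and TRIM26 with 0.512 CPM. Enough reads for a test were found in 35 members, the 34 and TRIM17. That filter passes a gene on its reads in a few libraries, so a member could pass through the group in which it was high, and such a member had to differ. TRIM17 and TRIM50 were of this kind: they reached the filter's level of 0.917 CPM in late libraries only. TRIM3 reached this level in 2 early and 5 late libraries, so the late ones carried it past the filter too.

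Libraries held 7866757 to 13658177 gene reads, and 0.188% to 0.261% of these fell on TRIM genes. Granulocyte precursor genes were abundant, with MPO at 6950 CPM or more in every library, but they fell. The summed level of 4 precursor markers was 8130 to 9490 CPM at 4 d against 30000 to 43200 CPM at 0 h, with all 4 lower on average. All 6 markers of maturing granulocytes were higher on average at 4 d, with ITGAM at 395 CPM against 53.8 CPM at 0 h. Erythroid HBA1 had no read, and HBB and the B cell marker MS4A1 reached at most 0.183 and 0.549 CPM. The summed level of 4 monocyte and macrophage markers was 74.9 to 84.7 CPM at 4 d against 22.8 to 26.7 CPM at 0 h, with CSF1R higher and CD14, CD163 and VCAN lower on average, CD163 and VCAN having no read at 4 d. That of 3 T cell markers was 4.96 to 7.4 CPM against 1.27 to 1.38 CPM, nearly all of it CD3E, with CD247 lower and CD3D at means of 0.033 and 0.0303 CPM. That of 4 epithelial and fibroblast markers was 6.05 to 13 CPM against 0.46 to 2 CPM, most of it COL1A1, with COL1A2 without a read at both times. The part of such genes in the TRIM results was not tested. Some libraries stood apart from their group mates. In 0 h replicate 2, 4 h replicate 3 and 4 d replicate 1, log2 expression relative to the group mates rose with GC content, by 0.485, 0.361 and 0.311 per 10 percentage points; it fell in 0 h replicate 1 and 4 h replicate 1 (-0.348 and -0.272), and the other 7 libraries had slopes of -0.207 to 0.058. 4 h replicate 1 also had reads in 22265 genes, against 15198 to 15798 in the other libraries.

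Promoter sequence is shown first for TRIM genes that bear a motif tied to interferon, which is known to induce many PRY-SPRY members. RefSeq windows of 300 bases around the start of transcription, on build GRCh38.p14, were matched by symbol for 52 of the 66 members, 24 of them among the 34 at 1 CPM or more. The interferon-stimulated response element was searched as GAAANNGAAA on both strands. It was found in 3.57% of all 35116 windows and in 5 of these 24 windows, and each is shown in 30 bases along the gene's strand with the match in capitals.
TRIM14 (chr9:98119229-98119258, minus strand): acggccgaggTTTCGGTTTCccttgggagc
TRIM21 (chr11:4393663-4393692, minus strand): ctgagcgGAAACTGAAAGTGAAAtagggag
TRIM5 (chr11:5685082-5685111, minus strand): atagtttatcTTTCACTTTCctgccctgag
TRIM44 (chr11:35662730-35662759, plus strand): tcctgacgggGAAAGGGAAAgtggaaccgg
TRIM16 (chr17:15683012-15683041, minus strand): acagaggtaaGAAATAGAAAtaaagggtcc

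TRIM21 held 2 overlapping matches, at bases 18 to 33 after the start, and the match of TRIM16 lay at bases -80 to -71, in a window that begins at a start inside the gene's span. In TRIM14 and TRIM5 the match reads on the opposite strand, just before the start. A match is only a run of letters: of these 5 genes, TRIM21 rose at both late times, TRIM14 rose at 2 d, TRIM16 fell, and TRIM5 and TRIM44 were not called in any comparison, as the values below show. The second interferon motif, TTCNNNGAA, occurs in 7.66% of all windows and in 9 of the 52 windows of members, among the 24 of described members those of TRIM3, TRIM7, TRIM16 and TRIM46.

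The 250 bases before the start are shown for TRIM50 and TRIM38, the members with a window that rose most at 2 d and 4 d among those whose calls held in every alternative fit, and for TRIM65, which fell. They hold no match to GAAANNGAAA, and their GC content is 59.6% in TRIM50, 42.4% in TRIM38 and 78% in TRIM65. TRIM50 passed the filter only through late libraries, so its calls serve here only to choose the gene.
TRIM50 (chr7:73325576-73325825, minus strand): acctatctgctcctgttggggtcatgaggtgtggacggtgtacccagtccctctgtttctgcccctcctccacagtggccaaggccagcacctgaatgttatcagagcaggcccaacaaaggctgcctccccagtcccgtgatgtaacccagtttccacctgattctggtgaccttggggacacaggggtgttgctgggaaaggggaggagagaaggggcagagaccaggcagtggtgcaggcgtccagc
TRIM38 (chr6:25962552-25962801, plus strand): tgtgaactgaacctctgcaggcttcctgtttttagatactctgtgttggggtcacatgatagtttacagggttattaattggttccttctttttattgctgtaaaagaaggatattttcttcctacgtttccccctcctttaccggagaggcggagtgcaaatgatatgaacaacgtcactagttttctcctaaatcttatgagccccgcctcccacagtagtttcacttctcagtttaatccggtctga
TRIM65 (chr17:75896952-75897201, minus strand): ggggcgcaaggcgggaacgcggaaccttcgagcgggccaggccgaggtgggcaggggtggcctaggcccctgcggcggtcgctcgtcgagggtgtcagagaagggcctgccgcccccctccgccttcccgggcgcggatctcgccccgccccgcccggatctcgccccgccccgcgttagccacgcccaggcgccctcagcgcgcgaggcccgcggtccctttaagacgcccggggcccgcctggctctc

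Across the family, more TRIM genes rose than fell at 2 d and 4 d of ATRA. Fold changes are log2 values ± SE from 1 model of all 12 libraries, and a gene was called at an adjusted p under 0.05 in a quasi-likelihood test of edgeR, with p-values adjusted over 12671 genes after Benjamini and Hochberg. After 4 h none of the 35 tested members was called in either direction by edgeR, beside 2% of all tested genes called higher and 4.23% called lower; 5 members had an unadjusted p under 0.05 there, and DESeq2, run as an alternative, called 1. After 2 d, 14 members (40%) were higher and 2 (5.71%) lower than at 0 h, beside 16.9% and 18.7% of all tested genes. After 4 d, 15 members (42.9%) were higher and 5 (14.3%) lower than at 0 h, beside 28.1% and 29.7% of all tested genes. Between 4 d and 2 d, 4 members (11.4%) were higher and 3 (8.57%) lower at 4 d, beside 13.1% and 13.5% of all tested genes. The share of members called higher thus lay above the background at 2 d and 4 d, the share called lower lay below it, and the shares between 4 d and 2 d lay near it. In both directions together, 20 of 35 members were called at 4 d, beside 7330 of 12671 genes, a similar share. At 2 d these counts were 16 members and 4512 genes. Without TRIM17 and TRIM50, 12 of 33 members (36.4%) were higher at 2 d and 13 (39.4%) at 4 d, and the medians given next were 0.42 and 0.29 at these times. TRIM3, which the late libraries carried past the filter, is still among the 13.

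Against 0 h, the median log2 fold change over the 35 members was 0.04 after 4 h, 0.44 after 2 d and 0.36 after 4 d, and -0.01 at 4 d against 2 d. Over all tested genes it was 0, -0.02, 0 and 0. The 3 comparisons with 0 h share their 0 h libraries. With GC content and transcript length as offsets, chosen after seeing the data, the median over the members was 0.30 at 2 d and 0.07 at 4 d, with 15 members called higher and 8 lower at 4 d. In place of the 14 members called higher at 2 d, 8 (22.9%) were without 0 h replicate 1, 6 (17.1%) without 0 h replicate 2, 5 (14.3%) without 2 d replicate 1, 6 (17.1%) without 2 d replicate 2 and 9 (25.7%) without 2 d replicate 3, beside 13.5%, 15.5%, 11.4%, 12.4% and 13.7% of all genes tested in these fits. In place of the 15 called higher at 4 d, 10 (28.6%) were without 4 d replicate 2, beside 24.5% of all genes. Several of these member shares lie near the background, and they still count TRIM17 and TRIM50 where these were called. Both are among the 5 called higher at 2 d without 2 d replicate 1. In place of the 7 called at 4 d against 2 d, 2 to 4 were called without any one of the 2 d replicates or without 4 d replicate 2 or 3, beside 2110 to 2798 of all genes in place of 3374.

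**Figure D1:**
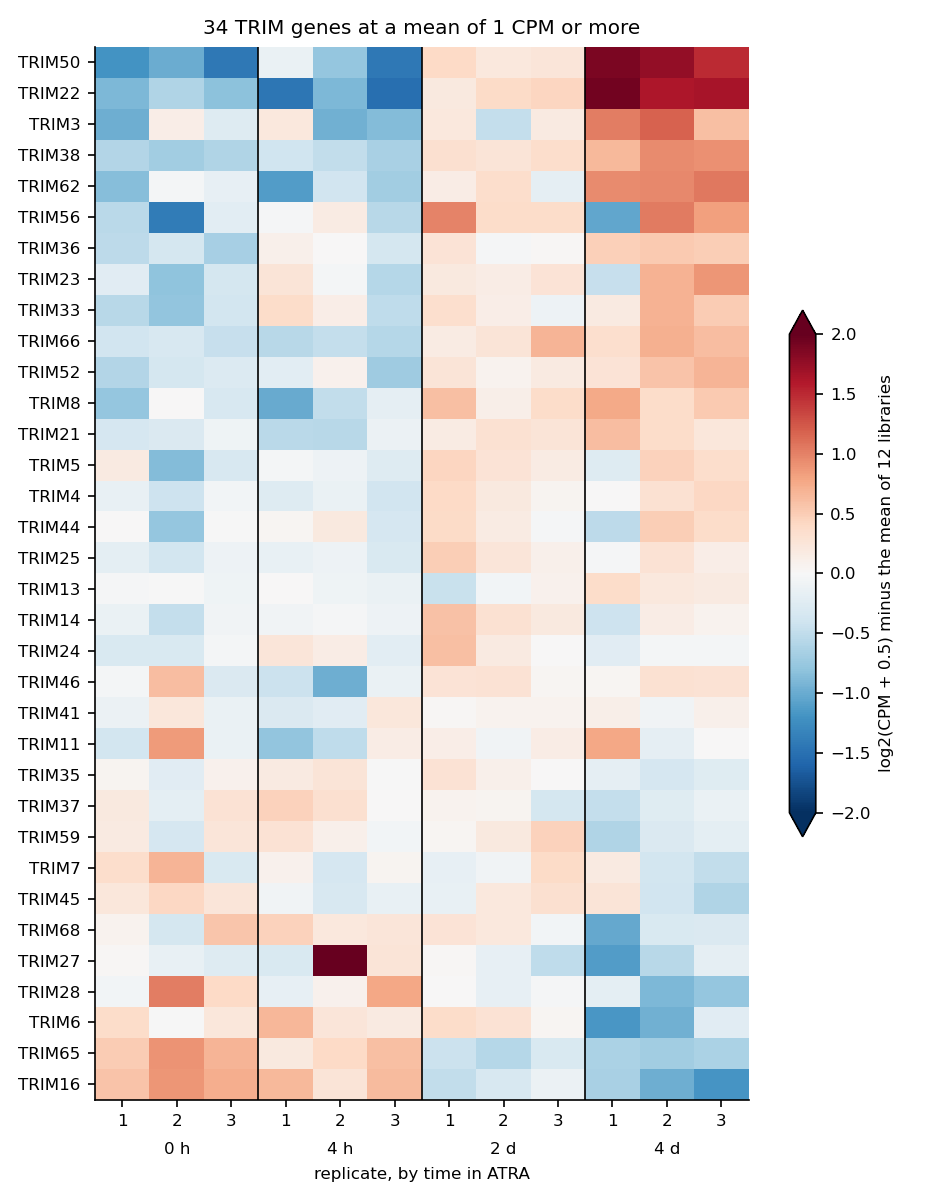
Rows are the 34 TRIM genes that averaged 1 CPM or more, ordered by their log2 fold change at 4 d against 0 h, and columns are the 12 libraries in order of time. Colour is log2(CPM + 0.5) minus the mean of the gene over the 12 libraries; the upper rows turn red at 2 d and 4 d, the lowest rows turn blue, and single cells such as TRIM27 in 4 h replicate 2 stand out.

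**Figure D2:**
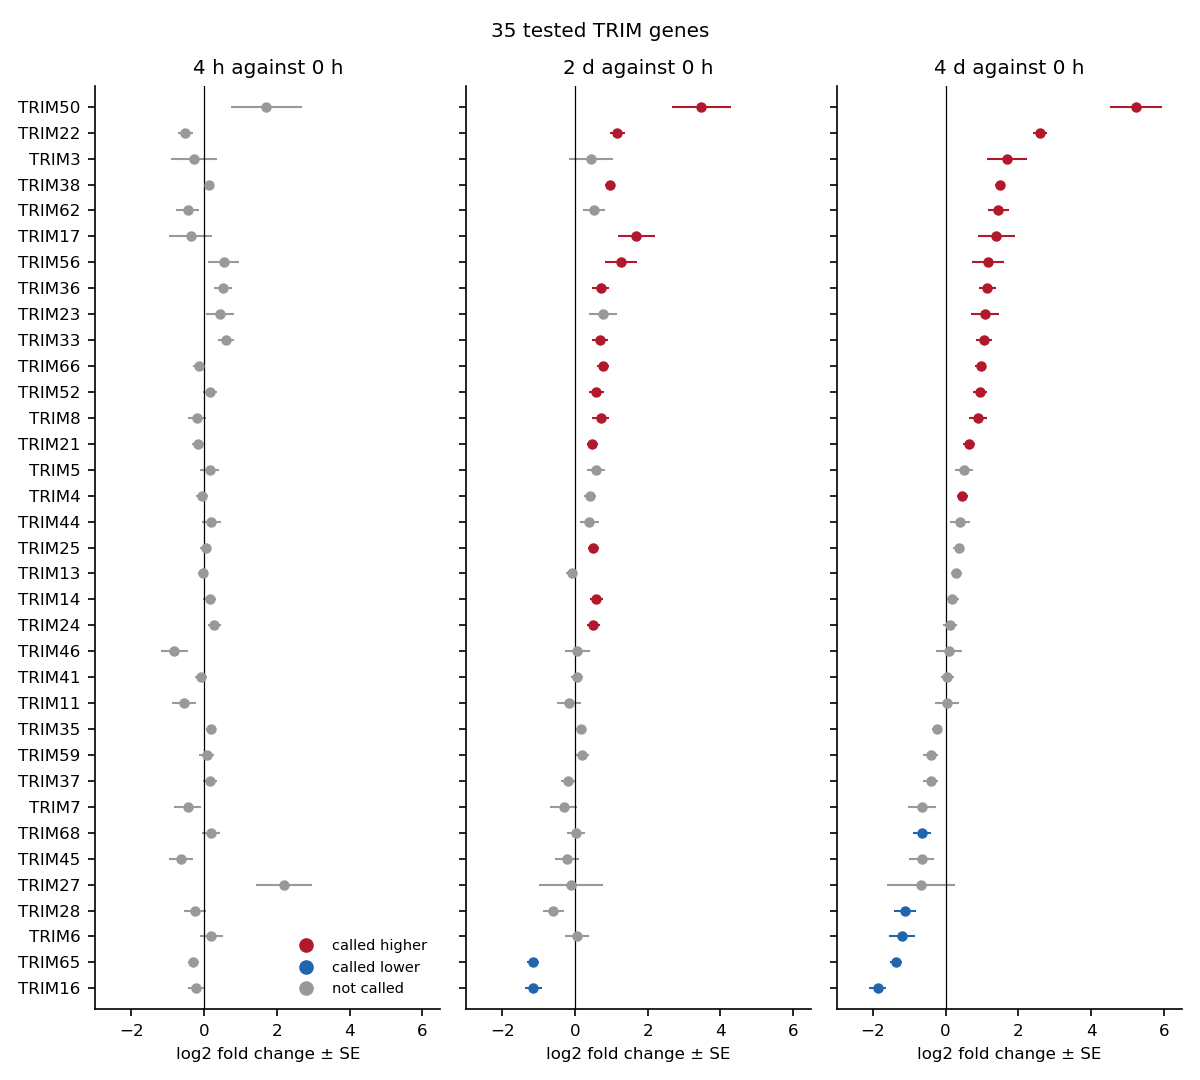
Each point is the log2 fold change of 1 of the 35 tested TRIM genes against 0 h, with a bar of 1 SE to each side, in the panels for 4 h, 2 d and 4 d. Red points were called higher (0, 14 and 15 genes), blue points lower (0, 2 and 5 genes), and grey points were not called.

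The 5 members with an unadjusted p under 0.05 at 4 h were TRIM27 (2.19 ± 0.77), TRIM33 (0.61 ± 0.22), TRIM22 (-0.52 ± 0.21), TRIM36 (0.52 ± 0.24) and TRIM46 (-0.82 ± 0.37), with edgeR adjusted p of 0.105 to 0.192, and the member that DESeq2 called was TRIM27. TRIM27, known from its fusion to RET in tumours, had 10, 175 and 19 reads in the 4 h libraries, against 14, 12 and 10 reads in the 0 h libraries. A single library, 4 h replicate 2, made that difference, and the 6 libraries of 2 d and 4 d had 3 to 15 reads. Without it the log2 fold change of TRIM27 was 0.18 (adjusted p = 0.857). Without 4 h replicate 3, TRIM27 and TRIM33 were called higher at 4 h, at log2 fold changes of 2.62 and 0.84 and adjusted p of 0.0436 and 0.022.

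The chromatin-bound members moved apart. TRIM28 fell and TRIM33 and TRIM66 rose by 4 d, while TRIM24 was higher at 2 d only in part of the fits. TRIM28, also called KAP1, is the corepressor that KRAB zinc finger proteins recruit to silence transposable elements and imprinted loci. Its level was 771, 1640 and 1060 CPM in the 0 h libraries and 715, 849 and 1380 CPM in those of 4 h. At 2 d it was 804, 714 and 787 CPM, and at 4 d 704, 433 and 470 CPM. All 4 d libraries lay below all 0 h libraries, while in the 0 h and 4 h groups the highest library, in each case one with a positive GC slope, stood well above its group mates. The log2 fold change at 4 d against 0 h was -1.11 ± 0.30 (edgeR adjusted p = 0.00603), and those at 4 h and 2 d were not called (-0.24 ± 0.30 and -0.59 ± 0.30). The fall at 4 d was called in all 21 alternative fits, at -1.36 to -0.77. TRIM28 held 48.3% ± 8.29 of all TRIM reads before ATRA, then 44.7% ± 8.08 after 4 h, 34.3% ± 1.23 after 2 d and 26.3% ± 6.04 after 4 d (SD, n = 3 each), while the TRIM share of all gene reads stayed between 0.206% and 0.228% on average.

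TRIM33, or TIF1-gamma, binds SMAD proteins and is required for normal blood formation in mice. It had 28.8, 24.4 and 32.8 CPM at 0 h, 54.9, 46.5 and 29.9 CPM at 4 h, 53.8, 46.5 and 39.5 CPM at 2 d and 48.1, 69.4 and 60.5 CPM at 4 d. Every library of 2 d and 4 d lay above every library of 0 h. Its log2 fold change was 0.70 ± 0.22 at 2 d and 1.05 ± 0.22 at 4 d (edgeR adjusted p = 0.0255 and 0.00123). The call at 4 d held in every alternative fit, at 0.68 with GC and length offsets. That at 2 d ended when 0 h replicate 1, 0 h replicate 2, 2 d replicate 1 or 2 d replicate 2 was left out (0.59 to 0.71, adjusted p 0.0599 to 0.105), and the offsets gave 0.30.

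TRIM66, or TIF1-delta, binds heterochromatin protein HP1 and is best known from the testis. Its level was 38.3, 40.1 and 36.1 CPM at 0 h, 34, 35.9 and 33.6 CPM at 4 h, 55.9, 59.8 and 80.5 CPM at 2 d and 63.4, 82.2 and 77.2 CPM at 4 d. The early libraries lay close together and all 6 late libraries above them. On the log2 scale the change was 0.77 ± 0.16 at 2 d and 0.96 ± 0.16 at 4 d (edgeR adjusted p = 0.00239 and 0.000202). With GC and length offsets it was 0.38 at 2 d, where the call ended (adjusted p = 0.0584), and 0.46 at 4 d, where it held. TRIM66 overlaps RPL27A in the annotation, and the strand setting of the counting is not given in the sources used here.

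TRIM24, or TIF1-alpha, is a reader of histone marks that binds nuclear receptors including the retinoic acid receptor. It had 49.9, 50 and 60.4 CPM at 0 h, 73.4, 68.4 and 53.3 CPM at 4 h, 94.3, 70.1 and 62.3 CPM at 2 d and 53, 60.6 and 60.1 CPM at 4 d. The 2 d libraries lay above those of 0 h by a margin that was small for replicate 3, and the 4 d libraries, at up to 60.6 CPM, lay close to those of 0 h, whose highest was 60.4 CPM. The fitted log2 change was 0.50 ± 0.18 at 2 d (edgeR adjusted p = 0.0443) and 0.12 ± 0.18 at 4 d (adjusted p = 0.603). The call at 2 d ended in 8 of 12 fits that left out 1 library, namely 0 h replicates 1 and 2, 4 h replicates 1 and 2, 2 d replicates 1 and 2 and 4 d replicates 2 and 3 (0.31 to 0.55, adjusted p 0.054 to 0.228). GC and length offsets gave 0.12 at 2 d and -0.21 at 4 d.

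Among the members that act on viral and nucleic acid sensing, TRIM22 and TRIM38 rose at both late times and again between 2 d and 4 d, TRIM21 rose more modestly, and TRIM65 fell. TRIM22 is an interferon-induced restriction factor of human immunodeficiency virus and influenza A virus. It had 5.7, 7.1 and 6.04 CPM at 0 h and 3.75, 5.73 and 3.56 CPM at 4 h. It reached 12.7, 14.6 and 15.1 CPM at 2 d and 43.4, 34.9 and 35.9 CPM at 4 d. All 2 d libraries exceeded those of 0 h and all 4 d libraries exceeded those of 2 d. The log2 fold change was 1.17 ± 0.20 at 2 d and 2.60 ± 0.20 at 4 d against 0 h, a 6.05-fold rise at 4 d, and 1.43 ± 0.19 at 4 d against 2 d (edgeR adjusted p = 0.00058, 2.14e-07 and 0.000164). These 3 calls held in all 21 alternative fits.

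TRIM38 is induced by interferon and promotes the degradation of TAB2 and TAB3, adaptors in Toll-like receptor signalling. Its level was 27.9, 25.8 and 27.6 CPM at 0 h, 32.1, 30 and 26.9 CPM at 4 h, 53.1, 50.9 and 53.9 CPM at 2 d and 66.4, 81.5 and 80.2 CPM at 4 d. The libraries within a time were close, and the 2 d and 4 d groups each lay above the group before them. Its log2 fold change was 0.96 ± 0.13 at 2 d and 1.49 ± 0.14 at 4 d against 0 h, and 0.53 ± 0.13 at 4 d against 2 d (edgeR adjusted p = 0.000131, 9.26e-07 and 0.00989). GC and length offsets gave 0.54 at 2 d. The step between 2 d and 4 d was not called without 2 d replicate 2 (0.51, adjusted p = 0.0524) or with no filter on low counts (0.52, adjusted p = 0.0618).

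TRIM21, or Ro52, is the cytosolic receptor that binds the Fc part of antibodies on incoming viruses. It had 51.4, 53 and 61.5 CPM at 0 h, 44.9, 44.2 and 59.8 CPM at 4 h, 72.7, 80.7 and 78.2 CPM at 2 d and 99.9, 83.7 and 76.1 CPM at 4 d. All late libraries were above all early ones. On the log2 scale the change was 0.48 ± 0.16 at 2 d and 0.65 ± 0.16 at 4 d (edgeR adjusted p = 0.0335 and 0.00381), and offsets for GC and length gave 1.02 at 4 d. The call at 2 d ended in 5 fits that left out 1 library (0 h replicates 1 and 2 and each 2 d replicate; 0.43 to 0.53, adjusted p 0.0581 to 0.0962).

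TRIM25 attaches ubiquitin chains to the RNA sensor RIG-I. It had 114, 102 and 122 CPM at 0 h, 119, 122 and 106 CPM at 4 h, 185, 155 and 141 CPM at 2 d and 129, 160 and 144 CPM at 4 d. The 2 d libraries all lay above the 0 h libraries. The fitted log2 change was 0.51 ± 0.15 at 2 d (edgeR adjusted p = 0.021) and 0.36 ± 0.15 at 4 d (adjusted p = 0.0615). The call at 2 d ended without 0 h replicate 2, 2 d replicate 1 or 2 d replicate 2 (0.40 to 0.53, adjusted p 0.0529 to 0.108), GC and length offsets gave 0.30 at 2 d and 0.13 at 4 d, and 4 of 21 alternatives called TRIM25 at 4 d.

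TRIM56, which promotes signalling downstream of double-stranded RNA and of STING, rose by a larger and less certain amount. It had 38.8, 21.3 and 49.1 CPM at 0 h, 56.2, 63.9 and 38.7 CPM at 4 h, 114, 73.5 and 73.6 CPM at 2 d and 27.4, 117 and 101 CPM at 4 d. At 4 d replicate 1 lay among the 0 h libraries and the others far above them. The log2 fold change was 1.26 ± 0.44 at 2 d and 1.17 ± 0.44 at 4 d (edgeR adjusted p = 0.038 and 0.034). Both calls ended with GC and length offsets (0.80 and 0.55, adjusted p = 0.123 and 0.249). They also ended without 0 h replicate 1 or 2 at both times, without any 2 d replicate at 2 d (0.99 to 1.37, adjusted p 0.0546 to 0.144), and without 4 d replicate 2 or 3 at 4 d (0.81 to 1.21, adjusted p 0.068 to 0.152).

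TRIM65 binds the RNA sensor MDA5 and promotes its assembly on RNA, and it was the member of this set that fell at both late times. Its level was 127, 166 and 143 CPM at 0 h and 102, 117 and 135 CPM at 4 h. At 2 d it was 65.8, 59.6 and 71.9 CPM, and at 4 d 57, 54.6 and 57.3 CPM. All 6 late libraries lay below all 6 early ones. Its log2 fold change was -1.15 ± 0.16 at 2 d and -1.37 ± 0.16 at 4 d (edgeR adjusted p = 0.000102 and 7.33e-06), 2.21-fold and 2.59-fold lower, and both calls held in every alternative fit.

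TRIM23, which carries an ARF-type GTPase domain and conjugates ubiquitin to NEMO, and TRIM6, which makes free ubiquitin chains that activate the kinase IKK-epsilon, are low in these cells and moved in opposite directions. TRIM23 had 2.3, 1.36 and 2.05 CPM at 0 h, 3.39, 2.69 and 1.7 CPM at 4 h, 3.25, 3.1 and 3.45 CPM at 2 d and 1.87, 4.76 and 5.49 CPM at 4 d. Its 4 d replicate 1 lay within the 0 h range. On the log2 scale the change at 4 d was 1.09 ± 0.38 (edgeR adjusted p = 0.0258), and the call ended without 0 h replicate 2 or 3 or 4 d replicate 2 or 3 (0.80 to 1.14, adjusted p 0.0512 to 0.129). TRIM6 had 2.76, 2 and 2.44 CPM at 0 h, 3.48, 2.47 and 2.37 CPM at 4 h, 2.74, 2.57 and 2.09 CPM at 2 d and 0.623, 0.793 and 1.66 CPM at 4 d. Its level held through 2 d, and the 4 d libraries, with 6, 8 and 19 reads, lay below all others. The fitted log2 change was -1.19 ± 0.36 at 4 d against 0 h and -1.24 ± 0.36 at 4 d against 2 d (edgeR adjusted p = 0.0118 and 0.0211). The first held in every alternative fit; the second ended without 2 d replicate 1 or 2 or 4 d replicate 1 or 2 (-1.22 to -1.0, adjusted p 0.0702 to 0.0781). TRIM6 overlaps TRIM5 and the TRIM6-TRIM34 readthrough gene, so reads of these genes may be split or dropped in counting.

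Other members of this set are known for the same pathways. TRIM14, an adaptor of the mitochondrial signalling protein MAVS, was higher at 2 d (0.59 ± 0.18, edgeR adjusted p = 0.0221) and not called at 4 d, and its 2 d call ended without 0 h replicate 2 or 2 d replicate 1 (0.47 in both, adjusted p 0.0625 and 0.107). TRIM4, a further ligase of RIG-I, was higher at 4 d (0.46 ± 0.16, adjusted p = 0.0246), a call that ended without 0 h replicate 2, 4 d replicate 2 or 4 d replicate 3 (0.36 to 0.42, adjusted p 0.0697 to 0.109). TRIM5, which recognizes retroviral capsids, was not called, at 0.58 ± 0.25 at 2 d (adjusted p = 0.0887).

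**Figure D3:**
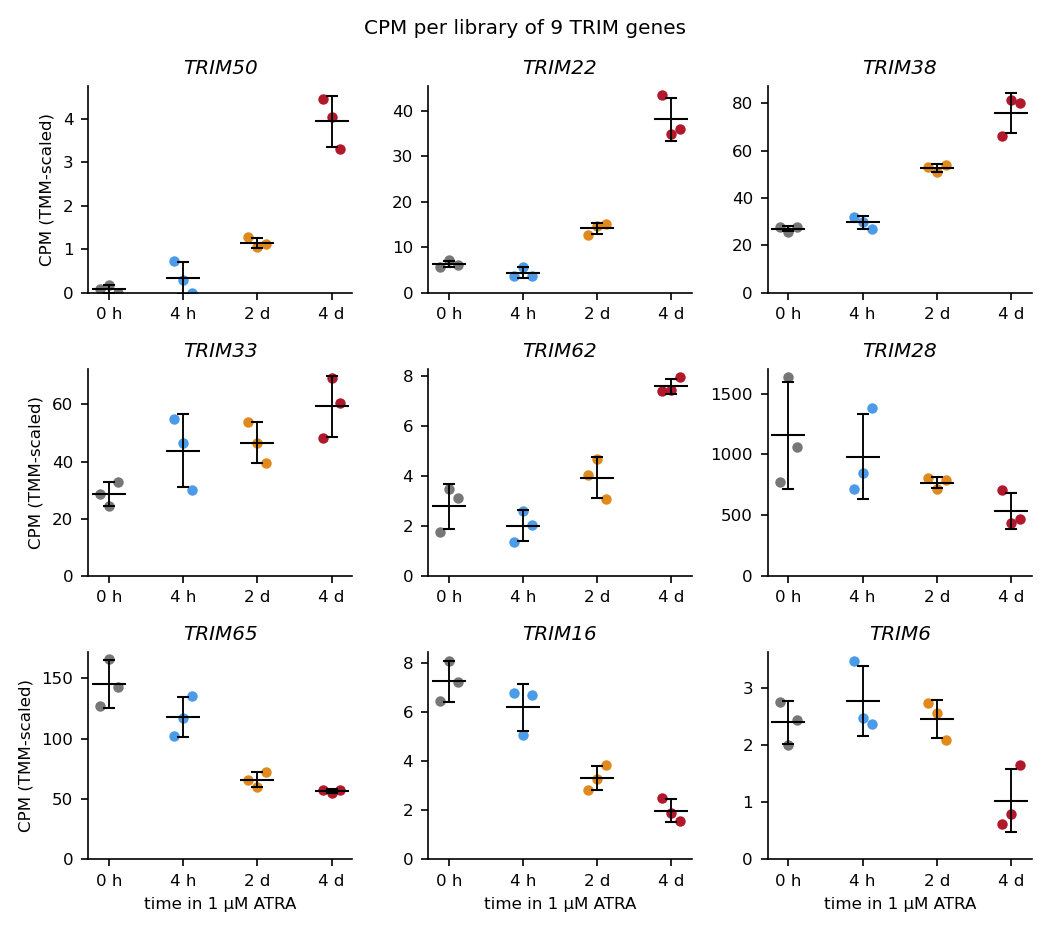
CPM of 9 TRIM genes in each of the 12 libraries, with time in 1 µM ATRA along the axis; points are libraries, the wide bar is the group mean and the thin bars are 1 SD (n = 3). TRIM50, TRIM22, TRIM38, TRIM33 and TRIM62 are highest at 4 d, TRIM28, TRIM65 and TRIM16 are lowest there, and TRIM6 is low at 4 d only.

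The gene with the largest fold change was TRIM50, a ligase known from the acid-secreting cells of the stomach and from the region deleted in Williams syndrome. TRIM50 had 1, 2 and 0 reads in the 0 h libraries and 8, 4 and 0 reads in those of 4 h. It had 15, 14 and 9 reads at 2 d and 43, 41 and 38 reads at 4 d, which is 4.47, 4.06 and 3.31 CPM. Reads increased with each time in total, and the groups from 2 d on did not overlap with 0 h. Since 0 h held 3 reads in all, the ratio of 4 d to 0 h was 41.9 with a 95% counting interval of 14 to 206, and that of 2 d to 0 h was 12.3 (3.91 to 62.4); these intervals cover counting error only. TRIM50 too passed the filter only through late libraries, so its p-values are a description. The edgeR adjusted p was 0.00503 at 2 d and 3.51e-05 at 4 d, and 0.0172 for the step between them (1.76 ± 0.49). That step was not called without any one of the 2 d replicates (1.71 to 1.85, adjusted p 0.0564 to 0.0832). TRIM73 and TRIM74, near copies of part of TRIM50, had no read in any library, and reads that align to several places are not assigned to genes in these counts.

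TRIM16 was the member with the largest fall. It lacks a RING, binds galectin and takes part in the clearance of damaged lysosomes by autophagy. It had 6.43, 8.1 and 7.21 CPM at 0 h, 6.78, 5.08 and 6.7 CPM at 4 h, 2.83, 3.25 and 3.82 CPM at 2 d and 2.49, 1.88 and 1.57 CPM at 4 d. The groups of 0 h, 2 d and 4 d did not overlap. The log2 fold change was -1.14 ± 0.23 at 2 d and -1.87 ± 0.24 at 4 d against 0 h (edgeR adjusted p = 0.00202 and 2.41e-05), and both calls held in every alternative fit. The step from 2 d was -0.73 ± 0.25 at 4 d (adjusted p = 0.0485), a call that ended in 16 of 21 alternatives, at -0.84 to -0.59 without single libraries. Those libraries were 0 h replicates 1 and 3, every 4 h and every 2 d replicate, and 4 d replicates 2 and 3 (adjusted p 0.0513 to 0.17). TRIM16L, a near copy, also fell at 4 d (-1.62 ± 0.54, adjusted p = 0.0201), a call that ended without 0 h replicate 2 or 4 d replicate 2 (-1.17 and -1.33, adjusted p = 0.104 and 0.08), and reads of both genes may be confused in counting.

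TRIM62 ubiquitinates CARD9, an adaptor of fungal recognition in myeloid cells. It had 1.75, 3.46 and 3.12 CPM at 0 h, 1.37, 2.61 and 2.03 CPM at 4 h, 4.02, 4.69 and 3.08 CPM at 2 d and 7.38, 7.44 and 7.93 CPM at 4 d. The 4 d libraries were close to each other and lay above all the rest. Its log2 fold change was 1.45 ± 0.29 at 4 d against 0 h and 0.93 ± 0.28 against 2 d (edgeR adjusted p = 0.000793 and 0.026). The first held in every alternative fit and the second ended without 2 d replicate 1 or 3 or 4 d replicate 2 or 3 (0.79 to 0.95, adjusted p 0.0548 to 0.0963).

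TRIM3, an NHL-domain member known from neurons, had 0.276, 1.18 and 0.779 CPM at 0 h, 1.28, 0.29 and 0.339 CPM at 4 h, 1.28, 0.605 and 1.23 CPM at 2 d and 2.6, 2.97 and 1.83 CPM at 4 d. Its 3 to 30 reads per library spread widely, and the 4 d libraries lay above all others. TRIM3 reached the filter's level in 2 early and 5 late libraries, so its p-values are a description as well. On the log2 scale the change at 4 d was 1.70 ± 0.55 (edgeR adjusted p = 0.0167), and the call ended without 0 h replicate 1 or 4 d replicate 2 (1.30 and 1.53, adjusted p = 0.0695 and 0.061). TRIM36, which binds microtubules, had 2.21, 2.55 and 1.95 CPM at 0 h, 3.66, 3.41 and 2.54 CPM at 4 h, 4.19, 3.33 and 3.45 CPM at 2 d and 4.88, 5.06 and 4.97 CPM at 4 d. Its 2 d and 4 d libraries lay above those of 0 h. The fitted log2 change was 0.71 ± 0.24 at 2 d and 1.15 ± 0.23 at 4 d (adjusted p = 0.0327 and 0.000882). The call at 4 d held in every alternative fit, and that at 2 d ended without 0 h replicate 1 or 3, any 2 d replicate or 4 d replicate 2 (0.60 to 0.77, adjusted p 0.0535 to 0.122).

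Of the other members, TRIM8, a regulator of cytokine and NF-kappa B signalling, was higher at 2 d (0.71 ± 0.24) and 4 d (0.89 ± 0.24; edgeR adjusted p = 0.0348 and 0.00593). GC and length offsets gave 0.40 and 0.36, both still called, and the 2 d call ended without 0 h replicate 1 or 3 or 2 d replicate 1 or 3 (0.53 to 0.71, adjusted p 0.0735 to 0.134). TRIM52 was higher at 2 d (0.59 ± 0.20) and 4 d (0.94 ± 0.20; adjusted p = 0.0376 and 0.00134). The call at 4 d held in every alternative fit, and that at 2 d ended without any one of 8 libraries, all of 0 h and 2 d, 4 h replicate 1 and 4 d replicate 2 (0.50 to 0.66, adjusted p 0.0523 to 0.117). TRIM68, a coactivator of the androgen receptor, was lower at 4 d (-0.66 ± 0.25, adjusted p = 0.0392), a call that ended without 0 h replicate 1 or 3, 2 d replicate 2 or 4 d replicate 1 (-0.69 to -0.39, adjusted p 0.0525 to 0.21). TRIM59, a membrane-spanning member, was lower at 4 d than at 2 d (-0.60 ± 0.20, adjusted p = 0.0387), a call that ended without 4 h replicate 2, 2 d replicate 2 or 3 or any 4 d replicate (-0.70 to -0.48, adjusted p 0.0548 to 0.139).

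TRIM17, known in neurons as a ligase of the survival factor MCL1, lay under 1 CPM and was still tested. It had 7, 3 and 6 reads at 0 h, 4, 6 and 4 reads at 4 h, 18, 23 and 13 reads at 2 d, and 4, 16 and 22 reads at 4 d. All 2 d libraries exceeded those of 0 h, while 4 d replicate 1 did not. Having passed the filter only through its late libraries, it had to differ, and its p-values are given as a description. The log2 fold change was 1.69 ± 0.50 at 2 d and 1.39 ± 0.51 at 4 d (edgeR adjusted p = 0.0185 and 0.0321). The call at 2 d ended without 0 h replicate 2 or 2 d replicate 2 (1.39 and 1.63, adjusted p = 0.0639 and 0.0592), and that at 4 d without 0 h replicate 2 or 3 or 4 d replicate 2 or 3 (1.00 to 1.51, adjusted p 0.0571 to 0.169).

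The 11 tested members that were called in no comparison were TRIM5, TRIM7, TRIM11, TRIM13, TRIM27, TRIM35, TRIM37, TRIM41, TRIM44, TRIM45 and TRIM46. They include abundant genes: TRIM41, a ligase first described for protein kinase C, had 87.2 to 125 CPM over the 12 libraries, and TRIM11 had 60.2 to 189 CPM. The highest TRIM11 values, 189 CPM in 0 h replicate 2 and 178 CPM in 4 d replicate 1, came from libraries with a positive GC slope. TRIM13, of the endoplasmic reticulum membrane, had 28.1 to 49.5 CPM and TRIM35 26.7 to 41.3 CPM. TRIM37, which acts on peroxisomes and centrosomes, had 9.46 to 18.6 CPM. A p above the threshold does not show that their levels stayed the same.

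By domain class at 4 d, the 17 tested PRY-SPRY members split into 7 higher, 3 lower and 7 not called, beside 28.1% higher and 29.7% lower of all tested genes. The 7 higher include TRIM17 and TRIM50, which passed the filter only through late libraries, so no share is read from this class. The other classes hold too few tested members for a share. All 3 tested members of the class with no further domain at the end (TRIM8, TRIM52 and TRIM56) were higher. Of the 3 PHD and bromodomain members, TRIM33 was higher, TRIM28 lower and TRIM24 not called, and of 4 tested members without a RING, TRIM66 was higher and TRIM16 lower. By position in RefSeq, 15 of the 66 members lie on chromosome 11 and 8 of these were tested, of which TRIM3, TRIM21, TRIM22 and TRIM66 were higher and TRIM6 and TRIM68 lower at 4 d. Among them TRIM5, TRIM6, TRIM22 and TRIM34 are neighbours, with TRIM22 at 2.60 ± 0.20, TRIM6 at -1.19 ± 0.36, TRIM5 at 0.51 ± 0.25 (not called) and TRIM34 not tested.

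Per kilobase of exon, which allows levels of different genes to be compared, TRIM28 stood above the rest, at 181 CPM per kilobase at 4 d against 391 at 0 h. At 4 d the next were TRIM21 with 45, TRIM41 with 30.3, TRIM14 with 28.1 and TRIM25 with 25.2 CPM per kilobase, against 28.7, 29.3, 24.8 and 19.7 at 0 h. TRIM65 was second at 0 h with 42.3 CPM per kilobase and had 16.4 at 4 d. TRIM22, at 12.7 CPM per kilobase at 4 d against 2.1 at 0 h, overtook TRIM35, TRIM4 and TRIM24, which had 6.68, 9.24 and 6.88 at 4 d against 7.83, 6.72 and 6.36 at 0 h. TRIM50 reached 1.83 CPM per kilobase at 4 d, against 0.0424 at 0 h.

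**Figure D4:**
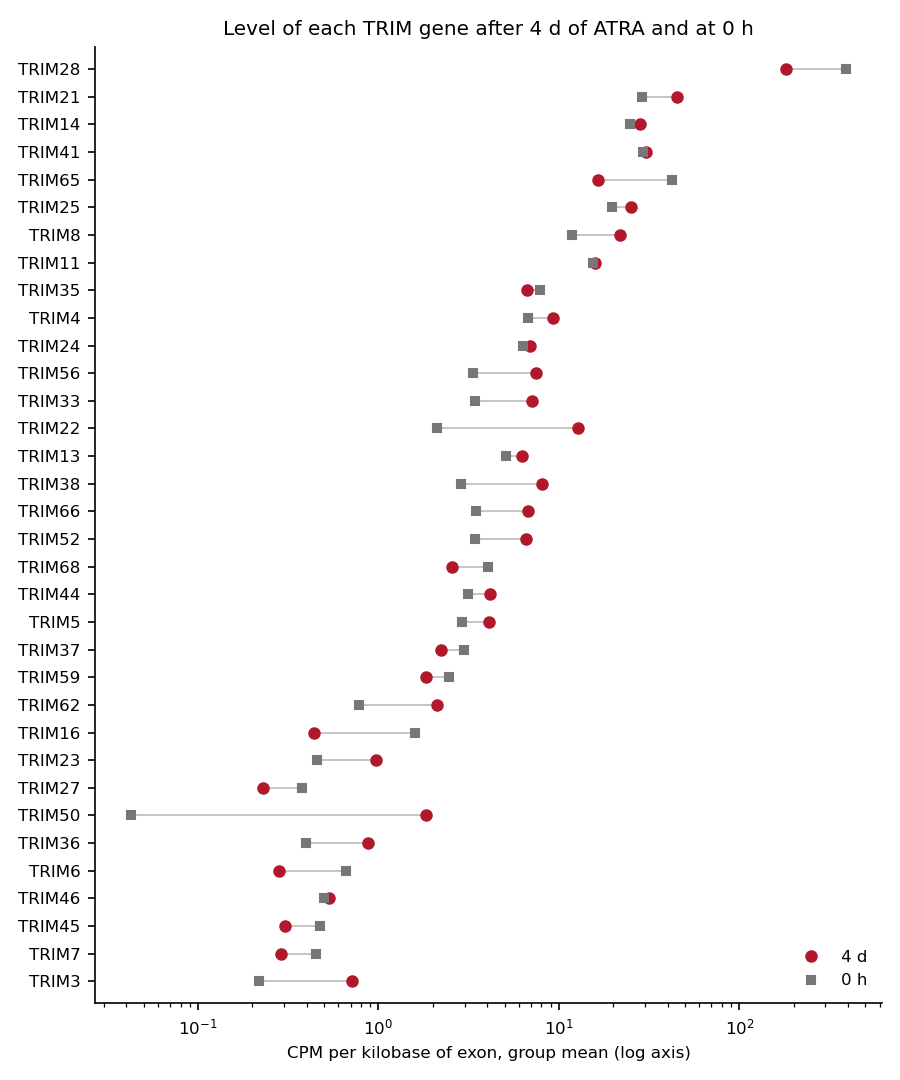
Mean level of the 34 TRIM genes at 1 CPM or more in CPM per kilobase of exon on a log axis, with red circles for 4 d of ATRA and grey squares for 0 h, ordered by the mean over 12 libraries. TRIM28 is highest at both times; TRIM50 and TRIM22 have the longest lines to the right, and TRIM16 and TRIM65 long lines to the left.

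The 32 members under 1 CPM hold many tissue-restricted genes. No read was found in TRIM15, TRIM31, TRIM40, TRIM64, TRIM73 and TRIM74. Another 21 members had 1 to 36 reads over the 12 libraries, with means of 0.00763 to 0.147 CPM. They include the muscle ligases TRIM54, TRIM55 and TRIM63, the erythroid TRIM10 and TRIM58, the neuronal TRIM9 and TRIM67, TRIM71 of early embryos, and TRIM34, an antiviral neighbour of TRIM5. The remaining 5 were TRIM17 and, at means of 0.42 to 0.512 CPM and not tested, TRIM2, TRIM26, TRIM47 and TRIM72. For scale, 3 reads correspond to 0.218 to 0.369 CPM in these libraries. Of the 25 untested members with any read, 17 were highest in 4 h replicate 1, where reads fell on the most genes, and 24 had a read there, against 7 to 11 in each of the other libraries. TRIM2, a neuronal NHL-domain ligase, had 18 reads in that library and 0 to 8 in the others.

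Some of the low members lie together. TRIM10, TRIM15, TRIM26, TRIM27, TRIM31, TRIM39 and TRIM40 lie on chromosome 6 between TRIM27 and KIFC1, across the major histocompatibility complex, and 1 of these 7 was tested, against 34 of the other 59 members. Of 157 protein-coding genes matched in that stretch, 33.8% had a mean of 1 CPM or more, against 58.5% of 18804 protein-coding genes elsewhere. Among those at 1 CPM or more, 17 of 53 (32.1%) had 1 library at 5 times their median or more, as TRIM27 did, against 3.31% elsewhere. The stretch was chosen after the TRIM27 values were seen, and the cause was not tested.

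Genes around the TRIM proteins in their pathways were read from lists of symbols, with the background shares given above. Most tested interferon-stimulated genes rose. Of 36 listed, 28 were tested, and 23 of these were higher and 3 lower at 4 d than at 0 h. Their median log2 fold change at 4 d was 1.71, and 19 were higher and 3 lower at 2 d. Without the 3 libraries with a positive GC slope named above, 23 were again higher and 3 lower at 4 d. After 4 h, 1 was higher and 5 were lower. The largest changes at 4 d were in MX2 (3.90 ± 0.19), a restriction factor of lentiviruses, MX1 (3.12 ± 0.33), its influenza-directed relative, and OAS3 (2.85 ± 0.32), a sensor of double-stranded RNA. MX2 averaged 58 ± 5.91 CPM at 4 d against 3.88 ± 0.95 CPM at 0 h (SD, n = 3 each). The 3 lower genes were ISG20, an exonuclease with 2 reads in all at 4 d against 26 at 0 h (ratio 0.0793, 95% counting interval 0.00912 to 0.317), HERC5, the ligase of ISG15 (-2.43 ± 0.31), and BST2, which tethers budding virus (-0.69 ± 0.20). With GC and length offsets BST2 was not called (-0.23, adjusted p = 0.0674). ISG20, with 4 reads in all at 2 d, reached the filter's level in no late library, so its call had to come out and is a description. The other genes of the lists were not checked for this.

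Of 22 tested genes of RNA and DNA sensing, 13 were higher at 4 d and 9 not called, with a median of 0.62, and 7 were higher and 15 not called at 2 d. Without the 3 libraries with a positive GC slope, 18 were higher at 4 d and 12 at 2 d, where the shares of all genes called higher also grew, to 33.8% and 25.5%. By contrast, 3 or 4 of the 22 were higher at 2 d without 0 h replicate 1 or 3, 4 h replicate 1 or any one of the 2 d replicates. In these fits 11.4% to 16.1% of all genes were called higher, so these counts at 2 d lie near the background. The largest changes were in DHX58 (2.29 ± 0.34), DDX58 (2.03 ± 0.26), IRF7 (1.98 ± 0.36) and IFIH1 (1.22 ± 0.20). DDX58 codes for RIG-I, the target of TRIM25 and TRIM4, and IFIH1 for MDA5, the target of TRIM65. DDX58 averaged 11.9 ± 2.24 CPM at 4 d against 2.93 ± 0.0865 CPM at 0 h, and IFIH1 15 ± 0.599 CPM against 6.41 ± 1.16 CPM (SD, n = 3 each). TAB2 and TAB3, targets of TRIM38, were among the 13, at 0.74 ± 0.22 and 0.72 ± 0.16; both, like UBE2N and SETDB1 below, were picked after their values were seen.

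Of the E1 and E2 enzymes that charge RING ligases with ubiquitin, more fell than rose. Of 23 tested, 4 were higher and 10 lower at 4 d, with a median of -0.28, and 2 were higher and 7 lower at 2 d. At 4 d these are 17.4% higher and 43.5% lower, beside 28.1% and 29.7% of all genes. The 7 lower at 2 d were 4 (17.4%, beside 12.7% to 17% of all genes in these fits) without any one of 0 h replicate 1 or 3, 4 h replicate 2, 2 d replicate 1 or 3 or 4 d replicate 3. Without the 3 libraries with a positive GC slope, 14 were lower at 4 d and 13 at 2 d, beside 34.3% and 27.3% of all genes. UBE2S, which elongates chains for the anaphase-promoting complex, fell (-1.67 ± 0.20), as did UBE2E2 (-1.41 ± 0.17). UBE2D1, a general E2 of RING ligases, rose (1.62 ± 0.24), as did UBE2L6, the E2 of the ubiquitin-like ISG15 (1.40 ± 0.16). UBE2N, which builds the chains used by TRIM ligases in sensing pathways, was lower (-1.13 ± 0.19, adjusted p = 2e-04).

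Of 20 tested partners of TRIM28 in KRAB-directed silencing, 4 (20%) were higher and 7 (35%) lower at 4 d, beside 28.1% and 29.7% of all genes, with a median of -0.22, and 2 were higher and 3 lower at 2 d. Without 0 h replicate 3, 2 were higher at 4 d. Without the 3 libraries with a positive GC slope, 6 were higher and 10 lower at 4 d and 3 higher and 8 lower at 2 d, beside 33.8%, 34.3%, 25.5% and 27.3% of all genes; without 2 d replicate 1, 2 were higher and 0 lower at 2 d. MORC3 (0.96 ± 0.22) and FAM208A (0.87 ± 0.20), a subunit of the HUSH complex, rose, and the deacetylase HDAC2 (-0.86 ± 0.13) and the phosphatase subunit PPP1CC (-0.75 ± 0.20) fell. The methyltransferase SETDB1, which TRIM28 recruits, averaged 120 ± 7.88 CPM at 4 d against 92 ± 4.4 CPM at 0 h (0.39 ± 0.13, adjusted p = 0.0204), a call that ended without 0 h replicate 1 or 3 or 4 d replicate 1 (0.33 to 0.39, adjusted p 0.0541 to 0.0664). With GC and length offsets, FAM208A was at 0.49, HDAC2 at -1.3 and TAB3 at 0.39, all still called. Of 4 tested family members under other symbols, RNF207 was higher at 4 d (2.34 ± 0.23) and TRIM16L and BSPRY were lower (-1.62 ± 0.54 and -1.53 ± 0.29). PML, the TRIM19 of the nuclear bodies, was not called, at 0.03 on the log2 scale.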

How the data were processed

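RNA of HL-60 cells at 4 times in ATRA was sequenced, 3 libraries per time. The authors deposited raw counts, the number of reads assigned to each gene in a library. Per the submitters' processing notes, the authors used FastQC, Trim Galore 0.6.7, HISAT2 2.1.0, HTSeq 1.99.2 and the build hg19; annotation, strand setting and kit are not stated in them. Reads outside genes (14% to 28.1%), in several genes (2.74% to 3.9%) and with more than 1 alignment (4.5% to 5.7%) were left out of library sizes. Counts were analysed with edgeR 4.0.16 in R 4.3.3: filterByExpr kept 12671 genes, TMM factors ran from 0.864 to 1.098, and 1 quasi-likelihood fit covered all libraries, with 8 residual degrees of freedom. Each later time was set against 0 h, and 4 d also against 2 d. SEs of log2 fold changes follow from the F statistics. The tests were tried on simulated counts.

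TRIM genes and lists were chosen with earlier results of these data known. Up to 14 members with the largest called change, and 6 fixed ones, were given in every library; of each list, up to 4 called genes with the largest change at 4 d. Exon lengths and GC content came from GENCODE 29 (GRCh38), matched by symbol for 92.9% of genes and all 66 members, and promoters, gene positions and overlaps from RefSeq GRCh38.p14. Alternatives were RLE factors, DESeq2 1.42.0, other filters, 6 libraries, a replicate term, libraries left out, and offsets for GC content and length. Deviations of libraries with the same replicate number correlated at -0.81 to 0.68, which cannot show whether the numbers pair libraries. Of the marker genes, 1 is not reported here.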

Additional observations from a re-analysis of the deposited data

How the results depend on the processing

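Of 43 calls of single members, 20 held in every alternative fit (14 of 20 at 4 d, 5 of 16 at 2 d, 1 of 7 at 4 d against 2 d) and 23 were lost in at least one, while 8 of 13 uncalled values that were examined (the largest change of each of the 11 members never called, and TRIM24 and TRIM25 at 4 d) gained a call somewhere. The calls that held include those of TRIM50 at 2 d and 4 d against 0 h, which are a description. At 4 h, the count of 0 members became 1 with DESeq2 (TRIM27), 2 with no filter on low counts (TRIM27 and TRIM33), 4 with 3 libraries left out (replicate 2 of 0 h, 3 of 4 h and 1 of 4 d; TRIM11, TRIM27, TRIM33, TRIM50), 1 with another 3 left out (replicate 2 of 0 h, 1 of 4 h and 1 of 4 d; TRIM27), and 0 to 2 with 1 library left out. At 2 d, 16 became 7 with a replicate block (5 higher, 14.3%, beside 13.4% of all genes, and 2 lower, 5.71%, beside 15%) and 7 to 17 with 1 library left out; at 4 d, 20 became 15 with the block and 15 to 23 with 1 library left out. At 4 d against 2 d, 7 became 5 with the block, 2 to 9 with 1 library left out, 14 with the first set of 3 libraries left out (8 higher, 6 lower) and 12 with GC and length offsets (6 higher, 6 lower). At 4 d against 0 h the offsets gave 15 higher and 8 lower. In each of the 21 alternatives the share of members called higher was above that of all genes and the share called lower below it, at 2 d and at 4 d. These shares count TRIM17 and TRIM50 where called, although both passed the filter only through late libraries. Leaving both out, the share called higher at 2 d does not lie above that of all genes in 3 fits. These are the fits with the block, without 2 d replicate 1 and without 0 h replicate 2. None of the libraries correlated best with its own replicate number. The libraries with a positive GC slope carry different numbers, so these correlations cannot show whether equal numbers share a culture or batch. Whether the block is the better fit therefore cannot be told, and calls lost under it are counted as lost.

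The member median moved to -0.07 at 4 h with the second set of 3 libraries left out. With the offsets it was -0.12 at 4 h, 0.30 at 2 d and 0.07 at 4 d, and with the first 3 libraries left out 0.09 at 4 d against 2 d. With 1 library left out it ran from -0.01 to 0.12 at 4 h, 0.31 to 0.52 at 2 d, 0.27 to 0.43 at 4 d and -0.19 to 0.08 at 4 d against 2 d. Directions turned in values that were not called: TRIM24 at 4 d (-0.21) and TRIM44 at 2 d (-0.02) with offsets, and TRIM11 (0.08) and TRIM41 (0.13) at 4 h with the second set left out. With 1 library left out, TRIM41 ran from -0.24 to 0.05 at 4 h, with the positive value without 0 h replicate 2. The causes were not tested. The same alternatives were applied to the pathway lists after seeing the data; with the offsets, 15 E1 and E2 genes were called at 2 d (3 higher, 12 lower), 10 partners of TRIM28 (3 and 7) and 12 sensing genes (11 and 1).

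Over all genes, 790 were called at 4 h and 3374 at 4 d against 2 d. At 4 h the count was 1341 with DESeq2, 1960 with no filter, which also moved the median of all genes by 0.27, 261 with 6 libraries, 381 with the block, 1385 with the offsets, 3192 with the first 3 libraries left out and 254 to 1519 with 1 library left out. At 4 d against 2 d it was 5549 with the first 3 libraries left out and 2110 to 4215 with 1 library left out. Depth limits the members under 1 CPM, where 3 reads are worth 0.218 to 0.369 CPM.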

Other observations

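Like TRIM27, some other genes of chromosome 6 had uneven counts. CLIC1 had 74.4 CPM in 2 d replicate 3 and 1.58 to 4.32 CPM in the other 11 libraries. CUTA had 66.1 CPM in 4 h replicate 1, 10.7 CPM in 0 h replicate 2 and 1.19 to 6.02 CPM elsewhere. PFDN6 had 40.4 CPM in 4 h replicate 3, 19.6 CPM in 4 d replicate 3 and at most 1.17 CPM elsewhere. The tubulin gene TUBB, with 3.53 to 14.2 CPM, had no library far above the others. These genes were chosen after their values were seen. Among CLIC1, CUTA and PFDN6 the libraries with a high value differ from gene to gene, and the cause was not tested.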
